A study of Mus musculus with 44 samples.

Results

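Hox genes encode homeodomain transcription factors that give cells their position along the head-to-tail axis. The Hox genes of lumbar dorsal root ganglia (DRGs, which hold the cell bodies of sensory neurons) were taken as every row whose symbol is Hox, a cluster letter from a to d and a number. The rule found 39 of the 45882 genes in the table of naive samples, the same 39 of 45882 in the table of operated satellite glia, and 19 of the 12170 genes in the table of neurons. In GRCm38 the 39 genes lie in 4 clusters. Hoxa holds 11 genes (chromosome 6), Hoxb 10 (chromosome 11, 96194316 to 96368256), Hoxc 9 (chromosome 15, 102921103 to 103036852) and Hoxd 9 (chromosome 2, 74668310 to 74765142).

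The series held 44 bulk RNA libraries from C57BL/6 mice. Satellite glial cells (SGCs), which form a sheath around each sensory neuron, were sorted, and these and whole DRGs gave 4 libraries each from naive mice of 9 weeks. Operated mice of 9 to 11 weeks gave SGCs 3 days and 14 days after full ligation of the sciatic nerve or after sham surgery, with 4 libraries in each group. Isolated neurons were taken from mice of the same ages 8 days after partial ligation or sham surgery. They comprised 4 libraries from the ligated side and 4 from the opposite side of ligated mice, with no sex given, and 3 ligated male, 3 ligated female, 3 sham male and 3 sham female libraries. SGCs and whole DRGs came from ganglia L3 and L4 and were fixed with paraformaldehyde; SGCs were then stained and sorted by flow cytometry. Neurons came from ganglia L3 to L5, were isolated with magnetic beads, and no fixation is named for them. No label says whether a library pools animals or which libraries share one, so p-values measure only the spread between libraries. Levels are given as FPKM, the fragments counted for a gene corrected for its transcript length and for library depth. The 3 tables were scaled separately, so levels are compared between tables only as ranks and shares, with no test.

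The markers of each preparation matched its label in the naive samples. The 9 SGC markers summed to 12820 to 18590 FPKM in SGCs and 4380 to 6412 FPKM in DRGs, and the 9 neuron markers found summed to 87.3 to 254 FPKM in SGCs and 2434 to 4316 FPKM in DRGs. In operated SGCs the SGC markers summed to 8997 to 15110 FPKM and the neuron markers to 160 to 724 FPKM. In the neuron libraries the same 9 neuron markers summed to 6497 to 9839 FPKM, and 3 of the 9 SGC markers are listed, at 36.5 to 72.4 FPKM in sum. Those libraries also held Schwann cell markers (4 of 7 listed, 725 to 2845 FPKM in sum) and erythrocyte markers (349 to 23830 FPKM in sum). Between 11441 and 13173 genes reached 1 FPKM in the naive libraries, 11452 to 12775 in the operated SGCs and 10225 to 11004 in the neurons. No read counts are in the files. The smallest FPKM steps of genes with a single transcript correspond to about 22300000 to 37600000 fragments in the naive libraries and to about 21900000 to 29400000 fragments in the operated SGCs, and no such step was found in the neuron table.

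Within a cluster, Hox genes are ordered by paralog group from 1 to 13, and in embryos those with low numbers are switched on early and toward the head, those with high numbers late and toward the tail. The pattern is kept in many adult cells through Polycomb and trithorax chromatin proteins. Groups 5 to 9 are active in the trunk and groups 10 and 11 mark lumbar and sacral levels, where the nerves of the hindlimb arise. Hox proteins bind DNA together with TALE cofactors of the Pbx and Meis families, and the clusters also encode microRNAs of the miR-196 and miR-10 families that act on Hox mRNAs.

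The mature sequences of these microRNAs are given first because their binding sites lie in several of the genes described, among them the most abundant one. They are from RefSeq (GRCm38.p6), 5′ to 3′, and the capitals mark the seed, bases 2 to 8.
miR-196a-5p: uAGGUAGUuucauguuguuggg
miR-196b-5p: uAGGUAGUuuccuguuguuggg
miR-10a-5p: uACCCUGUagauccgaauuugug
miR-10b-5p: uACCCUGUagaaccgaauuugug
The miR-196 members share 1 seed and the miR-10 members share another. miR-196a is encoded between Hoxb and between Hoxc genes (chromosome 11, 96265187 to 96265208, and chromosome 15, 102973365 to 102973386), miR-196b in Hoxa (chromosome 6, 52230129 to 52230150), miR-10a in Hoxb (chromosome 11, 96317186 to 96317208) and miR-10b in Hoxd (chromosome 2, 74726074 to 74726096).

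A match to the miR-196 seed (ACTACCT) stands in the 3′ UTR of 9 of the 39 Hox genes, 23.1%, against 6.12% of 21022 genes with a 3′ UTR in the annotation; the median UTR length is 969 bases in Hox genes and 964 in all genes. Hoxa7, the Hox gene with the highest mean level in every preparation, has 4 of these matches, shown here with their flanks (minus strand of chromosome 6, GRCm38; capitals mark the seed match).
Hoxa7, chr6:52215398-52215419: cacagccaaaatACTACCTagc
Hoxa7, chr6:52215361-52215382: aggcactcccaaACTACCTatg
Hoxa7, chr6:52215229-52215250: accatgatcaatACTACCTact
Hoxa7, chr6:52215208-52215229: tactagccctaaACTACCTatt
Hoxc8 has 2 matches, and Hoxa4, Hoxa5, Hoxa9, Hoxb1, Hoxb6 and Hoxb7 are among the genes with 1. Hoxb8 has no exact seed match, but carries the site through which miR-196 is known to cut its mRNA in mouse embryos.
Hoxb8, chr11:96284888-96284909: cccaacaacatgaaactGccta
This plus-strand site is identical to the complement of miR-196a in 21 of 22 bases, and the capital marks the single difference, A18G, counted from 1 at the 5′ end of the site. A match to the miR-10 seed (ACAGGGT) stands in 10.3% of the Hox genes, Hoxa3, Hoxb3 and Hoxd1 among them, against 12.5% of all genes. The Hoxd1 site is shown because Hoxd1 had the largest naive difference.
Hoxd1, chr2:74764933-74764954: cggaacaaatccACAGGGTagg
A match is a description of letters. The rows of the miR-196 and miR-10 precursors were listed at 0 in all naive libraries, and libraries of this kind are not made to measure mature microRNAs.

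Hoxa7 had the highest level of all Hox genes in lumbar SGCs, and paralog groups 5 to 8 gave most of the Hox sum. In naive SGCs 16 of the 39 genes averaged 1 FPKM or more, 1 averaged 10 FPKM or more, 13 stayed under 0.1 FPKM in the mean, and 5 were listed at 0 in every library. In naive DRGs 18 averaged 1 FPKM or more, 3 averaged 10 FPKM or more, 12 stayed under 0.1 FPKM in the mean, and 6 were listed at 0 in every library. Hoxa7 stood at 29.1, 40.0, 28.2 and 37.5 FPKM in SGCs and at 30.9, 26.7, 26.8 and 35.9 FPKM in DRGs. These ranges overlap. The next highest gene in SGCs, Hoxa9, averaged 8.27 ± 1.69 FPKM (SD, n = 4). Hoxa7 shares 20.4% of its exon bases with an antisense gene, Hoxaas3, which was listed at 0 in all naive libraries. Whether the counting used strand is not given in the sources used here, so reads in the shared bases cannot be told apart. Groups 12 and 13 were nearly silent in both preparations, with 0.0362% ± 0.0496 of the summed Hox FPKM in SGCs and 0.0248% ± 0.0286 in DRGs (SD, n = 4 each).

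The summed Hox level was 92.9 ± 9.33 FPKM in naive SGCs and 119 ± 5.01 FPKM in naive DRGs (SD, n = 4 each). The Hoxa cluster gave 59.3% ± 4.43 of it in SGCs and 54.7% ± 3.55 in DRGs, Hoxb 18.3% ± 2.98 and 19.8% ± 1.93, Hoxc 17.0% ± 3.68 and 15.2% ± 1.93, and Hoxd 5.42% ± 0.624 in SGCs and 10.4% ± 1.42 in DRGs. The Hoxd shares did not overlap, at 4.73% to 6.13% in SGCs and 8.84% to 12.3% in DRGs. By paralog group, groups 1 to 4 gave 11.2% ± 3.65 of the Hox sum in SGCs (6.59% to 15.1%) and 8.15% ± 0.658 in DRGs (7.68% to 9.09%). These low groups include genes listed at 0 FPKM in operated SGCs that have normalized counts in another table, so their share may be undercounted. Groups 5 to 8 gave 64.3% ± 5.10 of the Hox sum in SGCs and 52.8% ± 2.30 in DRGs, and group 9 gave 15.8% ± 2.91 in SGCs and 22.5% ± 1.57 in DRGs. Groups 10 and 11 gave 6.75% to 11.4% in SGC libraries and 15.4% to 17.8% in DRG libraries. Groups 5 to 8 thus took a larger share in SGCs, and groups 9 to 11 a larger share in DRGs. These shares were not tested, because they are sums over the chosen genes.

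Over all 20 neuron libraries groups 10 and 11 gave 22.3% ± 5.84 of the Hox sum (SD), with a range of 13.2% to 35.8%. The 16 operated SGC libraries stood at 9.41% ± 2.40, with a range of 5.51% to 13.6%, close to naive SGCs. Because the neuron table lists only 19 Hox genes, the share was also taken over those 19 in every table: it was 22.3% in neurons, 10.9% (6.38% to 15.2%) in operated SGCs, 10.02% (7.87% to 12.6%) in naive SGCs and 18.3% (17.0% to 20.01%) in naive DRGs. Preparation, ganglion levels (L3 to L5 against L3 and L4), fixation and table scaling differ together between neurons and SGCs and cannot be told apart.

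**Figure D1:**
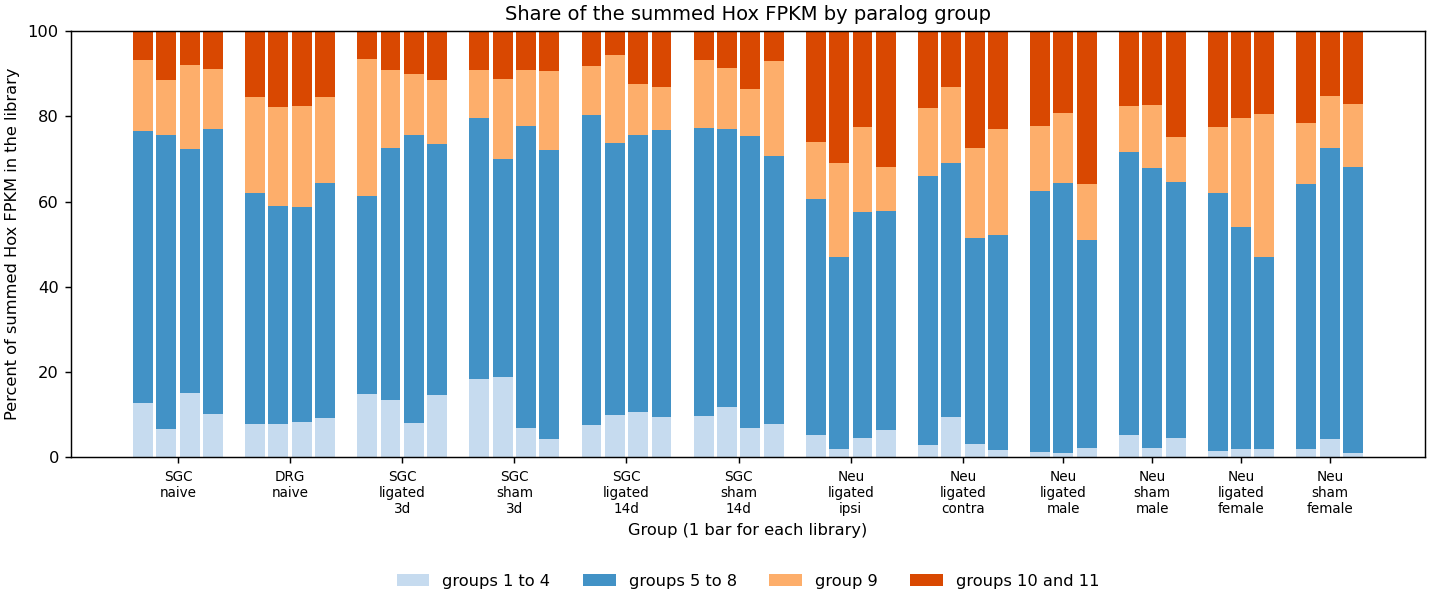
Percent of the summed Hox FPKM given by paralog groups 1 to 4, 5 to 8, 9, and 10 with 11, with 1 bar for each of the 44 libraries. Groups 10 and 11 take 5.51% to 13.6% in all 20 SGC libraries, 15.4% to 17.8% in the 4 DRG libraries and 13.2% to 35.8% in the 20 neuron libraries.

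Genes were ranked by mean FPKM over the 19 Hox genes that all tables list. Hoxa7 ranked first in neurons, naive SGCs and DRGs alike, and Hoxa9 and Hoxa10 stayed within the first 4 ranks. Hoxb5, a regulator of neural crest derivatives such as the gut nervous system, ranked 2 in neurons, 11 in naive SGCs and 4 in DRGs. Hoxc10, which helps specify lumbar motor neurons in the spinal cord, ranked 5 in neurons, 12 in naive SGCs and 6 in DRGs. Hoxd10, its lumbar relative in the Hoxd cluster, ranked 6 in neurons, 16 in naive SGCs and 17 in DRGs. Hoxd11 ranked 11 in neurons and 19 in both naive SGCs and DRGs. These ranks and leading genes are a description, with no test. The highest gene of each cluster was Hoxa7, Hoxb5, Hoxc10 and Hoxd10 in neurons. It was Hoxa7, Hoxb7, Hoxc8 and Hoxd8 in operated SGCs, Hoxa7, Hoxb4, Hoxc9 and Hoxd8 in naive SGCs, and Hoxa7, Hoxb5, Hoxc10 and Hoxd8 in DRGs.

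The first comparison set naive SGCs against whole ganglia, and no label says that the libraries share animals. Of the 39 Hox genes, 17 reached 1 FPKM in at least 4 of the 8 libraries and were tested with limma on log2(FPKM + 1), adjusted by Benjamini-Hochberg over the 12907 genes tested. Of these 17, 8 passed an adjusted p of 0.05: 1 was higher in SGCs (Hoxb4) and 7 were lower (Hoxd1, Hoxb5, Hoxc10, Hoxa9, Hoxb9, Hoxa10 and Hoxd8). Hoxd1 reached 1 FPKM in no SGC library and Hoxc10 in 1, so both entered the test through their DRG libraries. For Hoxd1 and Hoxc10 the direction of the call was thus largely set by the filter. Hoxb9 reached 1 FPKM in 2 SGC libraries, and Hoxb4, Hoxb5, Hoxa9, Hoxa10 and Hoxd8 reached it in all 8 libraries. Of all genes tested, 44.9% were called, 16.9% as higher in SGCs and 27.9% as lower, so the share of Hox genes called was near that of all genes. The median log2 difference was 0.07 over the 17 Hox genes and -0.12 over all genes tested. In bulk libraries, fewer cells of a type and less RNA per cell cannot be told apart. The libraries of the groups did not overlap for 7 of the 17 Hox genes, against 43.8% of all genes tested. Quantile normalization moved the median of all genes to 0.16 and the split of Hox calls to 4 higher and 6 lower: Hoxc4, Hoxc5 and Hoxc6 were then called as higher and Hoxd8 was not called. Under it 3701 of all genes were higher and 2691 lower, against 2184 higher and 3605 lower without it.

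Hoxd1, which in mice is known for its part in the wiring of pain-sensing neurons, had the largest difference. It stood at 0, 0.0218, 0.0260 and 0 FPKM in SGCs and at 4.24, 3.28, 3.74 and 2.94 FPKM in DRGs. It was thus near 0 in all SGC libraries and clearly present in all DRG libraries. It entered the test only through its DRG libraries, so its p-value adds no support to the direction. The log2 difference was -2.16 ± 0.14 (SE; limma adjusted p = 1.908e-05). At levels this low the size depends on the pseudocount: it was -5.02 with a pseudocount of 0.1 in place of 1. Its start lies at chromosome 2, 74762980, on the plus strand (GRCm38). The 250 bases before it, from RefSeq, are shown beside those of Hoxb4, the only called gene that was higher in SGCs; capitals mark AGGTCA, the core sequence of retinoic acid receptor sites, or its complement TGACCT.
Hoxd1, chr2:74762730-74762979: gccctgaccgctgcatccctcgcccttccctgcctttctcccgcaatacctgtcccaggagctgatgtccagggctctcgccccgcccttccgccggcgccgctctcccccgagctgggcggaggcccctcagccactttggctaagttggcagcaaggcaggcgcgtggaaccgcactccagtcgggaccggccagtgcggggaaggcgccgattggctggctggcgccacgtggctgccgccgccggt
Hoxb4, chr11:96318017-96318266: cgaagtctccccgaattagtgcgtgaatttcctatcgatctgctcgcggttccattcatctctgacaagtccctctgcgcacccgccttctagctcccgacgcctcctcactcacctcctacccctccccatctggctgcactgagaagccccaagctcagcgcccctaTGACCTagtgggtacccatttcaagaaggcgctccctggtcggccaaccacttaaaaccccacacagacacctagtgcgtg
AGGTCA on either strand stands in 6 of the 24 Hox promoters in the RefSeq table (those of Hoxb4, Hoxc4, Hoxd3, Hoxd4, Hoxd8 and Hoxd10) and in 14.0% of the 32851 promoters of all genes. The Hoxd1 window holds no such letters.

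Hoxb4, a gene of group 4 best known from blood stem cells, stood at 7.16, 3.62, 5.17 and 3.77 FPKM in SGCs and at 2.62, 2.00, 2.41 and 2.84 FPKM in DRGs. All 4 SGC libraries lay above all 4 DRG libraries. The log2 difference was 0.74 ± 0.21 (SE; limma adjusted p = 0.0191). The call was lost without DRG library 2 (adjusted p = 0.0601) or without DRG library 3 (adjusted p = 0.0508).

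Its neighbour Hoxb5 differed in the other direction. It stood at 1.37, 2.91, 2.55 and 1.18 FPKM in SGCs and at 9.23, 7.66, 7.33 and 6.997 FPKM in DRGs. Every SGC library lay below every DRG library, with a log2 difference of -1.59 ± 0.22 (SE; limma adjusted p = 0.000529). Hoxb5 shares 3.6% of its exon bases with the antisense gene Hoxb5os.

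Among the genes of group 9, Hoxa9 and Hoxb9 were lower in SGCs and Hoxc9 was not called. Hoxa9, also known as a driver of myeloid leukaemia, stood at 6.94, 8.52, 10.6 and 7.05 FPKM in SGCs and at 17.6, 15.7, 16.2 and 14.4 FPKM in DRGs, with a log2 difference of -0.89 ± 0.16 (SE; limma adjusted p = 0.00192). Hoxb9 stood at 0.644, 2.39, 1.29 and 0.166 FPKM in SGCs and at 5.60, 6.77, 5.86 and 3.36 FPKM in DRGs, with a log2 difference of -1.67 ± 0.34 (SE; limma adjusted p = 0.00377), or -2.55 with a pseudocount of 0.1. Hoxc9, which in the mouse spinal cord sets the boundary between thoracic and limb motor neurons, stood at 5.86, 2.56, 6.10 and 5.62 FPKM in SGCs and at 3.92, 3.40, 5.19 and 4.89 FPKM in DRGs (log2 difference 0.13 ± 0.25, adjusted p = 0.694). The groups do not overlap for Hoxa9 and Hoxb9 and overlap for Hoxc9. Hoxd9 did not enter the test, at 0, 0.0187, 0.711 and 0 FPKM in SGCs and 1.12, 0.770, 1.41 and 1.02 FPKM in DRGs.

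Of the lumbar groups 10 and 11, Hoxa10 and Hoxc10 entered the test and both were lower in SGCs. Hoxa10, one of the genes that keep lumbar vertebrae free of ribs, stood at 5.41, 10.8, 6.29 and 6.48 FPKM in SGCs and at 14.0, 15.0, 13.9 and 13.3 FPKM in DRGs, with a log2 difference of -0.91 ± 0.20 (SE; limma adjusted p = 0.00536). Hoxc10 stood at 0, 0.934, 0.836 and 1.13 FPKM in SGCs and at 5.05, 4.15, 6.59 and 4.00 FPKM in DRGs, with a log2 difference of -1.82 ± 0.27 (SE; limma adjusted p = 0.000697), or -3.07 with a pseudocount of 0.1. In both genes every SGC library lay below every DRG library. Only 1 SGC library of Hoxc10 reached 1 FPKM, so the entry of Hoxc10 to the test rested on its DRG libraries. Hoxc10 shares 8.7% of its exon bases with an annotated transcript of Hoxc5 on the same strand. Hoxd10 stood at 0, 0, 0.455 and 0.514 FPKM in SGCs and at 0.115, 0.864, 0.0852 and 0.422 FPKM in DRGs, and Hoxd11 stayed under 0.36 FPKM in all 8 libraries. Both lay under the filter. Hoxd8, a trunk gene, completes the called genes, at 3.85, 4.85, 2.85 and 3.82 FPKM in SGCs and 5.91, 8.09, 5.79 and 4.79 FPKM in DRGs (log2 difference -0.56 ± 0.19, SE; limma adjusted p = 0.0429). Its groups overlap, and the call was lost in 8 of the other settings tried, among them quantile normalization (adjusted p = 0.152).

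**Figure D2:**
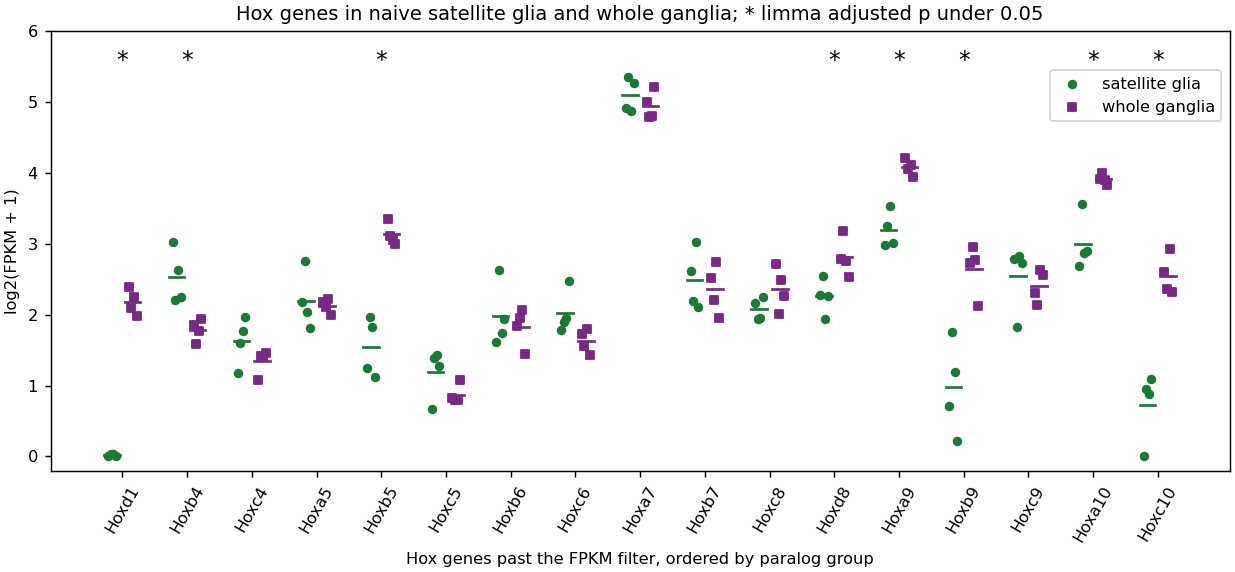
Level of the 17 tested Hox genes, as log2(FPKM + 1), in each of 4 naive SGC libraries (circles) and 4 naive DRG libraries (squares); short lines are group means and stars mark a limma adjusted p under 0.05. Hoxd1 lies near 0 in SGCs and between 2.94 and 4.24 FPKM in DRGs, and Hoxa7 overlaps.

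The 9 other tested genes, all of groups 4 to 9, were not called: Hoxa5, Hoxa7, Hoxb6, Hoxb7, Hoxc4, Hoxc5, Hoxc6, Hoxc8 and Hoxc9. Their log2 differences lay between -0.29 (Hoxc8) and 0.40 (Hoxc6, adjusted p = 0.123). For Hoxa7 the 95% interval of the log2 difference was -0.22 to 0.52 (adjusted p = 0.480). The remaining 22 Hox genes lay under the filter. Among them Hoxb8, the target cut by miR-196 in embryos, stood at 0.172 to 0.474 FPKM in SGCs and 0.127 to 0.267 FPKM in DRGs.

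Markers of other cell types differed between the naive groups in the same libraries. All 9 tested neuron markers, 6 of 6 nociceptor markers, 6 of 6 macrophage markers, 4 of 4 erythrocyte markers and 3 of 3 neutrophil markers were lower in SGCs. Summed nociceptor markers were 21.9 to 43.4 FPKM in SGCs and 585 to 1154 FPKM in DRGs, and summed erythrocyte markers were 0.704 to 1.07 FPKM in SGCs and 1348 to 3191 FPKM in DRGs. Schwann cell markers had 4 of 6 lower, with sums of 559 to 620 FPKM in SGCs and 1251 to 1678 FPKM in DRGs. Mural cell markers had 4 of 5 lower and 1 higher, with sums of 7.58 to 12.7 FPKM in SGCs and 135.5 to 187.5 FPKM in DRGs. Endothelial markers went the other way: 3 of 6 were higher and none lower, with sums of 70.7 to 159 FPKM in SGCs and 17.6 to 65.9 FPKM in DRGs. Fibroblast markers had 1 of 5 higher and none lower, and their sums overlapped, at 114 to 355 FPKM in SGCs and 169 to 250 FPKM in DRGs. The part of these cells in the Hox differences was not tested. Of all genes tested, 16.9% were higher and 27.9% lower. Transcription factors of neurons and glia differed in opposite directions: 7 of 7 tested sensory neuron factors were lower in SGCs (Pou4f1 by a log2 difference of -3.66, Isl1 -3.60, Shox2 -3.05, Prdm12 -2.03), and 7 of 8 glial factors were higher (Sox2 1.81, Foxd3 1.64).

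Of the TALE cofactors, with which Hox proteins bind DNA, 9 of 9 were tested and 2 were lower in SGCs, Meis3 and Pbx4, against 27.9% of all genes tested. Meis3 stood at 8.56, 7.41, 4.42 and 4.47 FPKM in SGCs and at 14.8, 17.9, 15.7 and 12.1 FPKM in DRGs (log2 difference -1.19, adjusted p = 0.00272), and Pbx4 had a log2 difference of -1.60 (adjusted p = 0.0172). The median of the 9 was -0.43. Polycomb proteins, which keep silent Hox genes silent, had 4 of 12 tested genes higher in SGCs and none lower by limma at this threshold: Rnf2 (log2 difference 0.93), Bmi1 (0.84), Phc1 (0.62) and Ezh2 (0.59); 4 of the 12 had an unadjusted p under 0.05. Of all genes tested 16.9% were higher and 52.2% had an unadjusted p under 0.05. Of 7 trithorax proteins and H3K27 demethylases, Kdm6b (0.92) and Ash1l (0.53) were higher and Men1 (-0.61) was lower.

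Of the genes of the retinoic acid pathway and the Cdx family, which set Hox expression in the embryo, 3 of 12 were tested and Rarb, a retinoic acid receptor, was higher in SGCs. Rarb stood at 10.2, 8.09, 8.21 and 8.59 FPKM in SGCs and at 2.75, 3.25, 3.11 and 3.02 FPKM in DRGs, with no overlap (log2 difference 1.27, adjusted p = 0.000133). Of 3 tested noncoding RNAs of the clusters, Hoxb3os was higher in SGCs (log2 difference 1.14) and Hoxd3os1 lower (-1.54). Hoxb3os stood at 8.87, 21.4, 24.2 and 23.5 FPKM in SGCs and at 8.54, 5.86, 9.24 and 7.66 FPKM in DRGs. It is antisense to Hoxb3, which shares 52.9% of its exon bases with it. Of 7 tested genes flanking the clusters, Mtx2 next to Hoxd was lower (-1.15) and Hibadh near Hoxa was higher (0.50). Beside these 3 lists, 16.9% of all genes tested were higher in SGCs and 27.9% lower, so counts this small say little about them.

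Some low Hox levels in the FPKM tables go against a second measure. Hoxa2 and Hoxa4 were listed at 0 FPKM in all 16 operated SGC libraries, while the authors' deposited table gives them a mean normalized count of 18.6 and 29.5 at 3 days and of 36.9 and 41.8 at 14 days. Hoxa3 was listed at 0 in 5 of 8 libraries at 3 days and in 8 of 8 at 14 days, with 112 and 101 in the authors' deposited table. Each of the 3 genes shares 15.0% to 27.1% of its exon bases with another annotated gene. Hoxb2 and Hoxb3 were listed at 0 in 7 and 5 of 8 libraries at 3 days, with mean normalized counts of 50.6 and 59.9. At 14 days both were listed at 0 in 6 of 8 libraries, with 71.5 and 26.0. They share 27.3% and 52.9% of their exon bases with another annotated gene. The zeros of these genes are therefore not read as absence.

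Ligation was compared with sham surgery in sorted SGCs to see whether the profile was stable after nerve injury. At 3 days, 21 Hox genes were tested and 0 of 21 were called by limma, against 0.0646% of the 13924 genes tested. An unadjusted p under 0.05 was reached by 2 of the 21, against 9.11% of all genes tested. The authors' deposited table calls 0 of 29 Hox genes with an adjusted p, against 1.01% of its genes. At 14 days 0 of 21 were called, against 0.00718% of all genes, and 0 had an unadjusted p under 0.05, against 5.16% of all genes. For that day the authors' deposited table calls 0 of 29, against 1.05% of its genes. With so few genes called anywhere, these counts say little about Hox genes in particular. Groups 10 and 11 gave 9.24% ± 2.13 of the Hox sum after ligation and 9.68% ± 0.999 after sham at 3 days, and 9.72% ± 3.58 after ligation and 8.99% ± 3.15 after sham at 14 days (SD, n = 4 each).

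Hoxb6, a trunk gene with 1 miR-196 seed match, had the lowest p at 3 days. It stood at 9.17, 6.52, 5.35 and 4.52 FPKM after ligation and at 1.92, 1.19, 2.403 and 3.98 FPKM after sham. All ligated libraries lay above all sham libraries. The log2 difference was 1.16 ± 0.28 (SE, 95% interval 0.57 to 1.75; p = 0.000788, limma adjusted p = 0.177), so it missed the threshold, and the authors' deposited table gives 1.12 with an adjusted p of 0.161. At 14 days Hoxb6 stood at 2.45, 1.54, 2.50 and 3.29 FPKM after ligation and at 1.96, 2.16, 1.53 and 2.75 FPKM after sham, a log2 difference of 0.14 ± 0.28 (SE; adjusted p = 1). The difference between the effects, 14 minus 3 days, was -1.02 ± 0.39 (SE; limma adjusted p = 0.9995).

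Hoxb7, next to Hoxb6 in the cluster, was not called either at 3 days, with 0.642, 3.55, 4.32 and 4.64 FPKM after ligation and 5.55, 10.1, 5.78 and 6.87 FPKM after sham. Its ligated libraries lay below all sham libraries. The log2 difference was -1.03 ± 0.37 (SE; p = 0.0137, limma adjusted p = 0.411), and the authors' deposited table gives -0.943 with an adjusted p of 0.743. Hoxa7 stood at 27.1, 16.4, 34.9 and 25.7 FPKM after ligation and at 23.5, 28.5, 46.4 and 47.7 FPKM after sham at 3 days, with overlap (log2 difference -0.46 ± 0.26, SE; adjusted p = 0.623). Summed endothelial markers in these libraries were 157 to 291 FPKM after ligation and 127 to 199 FPKM after sham, and their part in the Hox values was not tested. Counting genes whose groups do not overlap, Hoxb6, Hoxb7 and Hoxa10 made 3 of 21 at 3 days, against 3.78% of all genes tested. Hoxa10 stood at 6.72, 6.18, 5.91 and 6.43 FPKM after ligation and at 6.95, 8.26, 7.49 and 10.5 FPKM after sham (log2 difference -0.33 ± 0.25, SE; adjusted p = 0.729).

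At 14 days the groups of all 21 tested Hox genes overlapped, against 4.07% of all genes without overlap. The lowest p belonged to Hoxc8, a trunk gene with 2 miR-196 seed matches, at 3.13, 3.83, 5.32 and 4.85 FPKM after ligation and 3.06, 2.18, 3.96 and 1.99 FPKM after sham (log2 difference 0.49 ± 0.26, SE; limma adjusted p = 1). Hoxd8 stood at 8.04, 3.49, 7.73 and 6.06 FPKM after ligation and at 4.97, 5.08, 4.04 and 3.33 FPKM after sham (log2 difference 0.41 ± 0.25, SE). Hoxb9 stood at 3.35, 1.81, 3.44 and 2.73 FPKM after ligation and at 2.24, 2.401, 0.394 and 2.97 FPKM after sham (log2 difference 0.43 ± 0.32, SE). Neither was called, and in both a ligated library lies within the sham range. Hoxa7 stood at 43.7, 32.7, 41.4 and 39.2 FPKM after ligation and at 44.5, 46.1, 38.0 and 28.4 FPKM after sham (log2 difference 0.02 ± 0.26, SE). The effect of ligation at 14 minus 3 days was called for 0 of 21 Hox genes, against 0.00718% of all genes. An unadjusted p under 0.05 was reached there by 2 of 21 (Hoxb6 and Hoxb7), against 4.19% of all genes tested. Over the 16 operated libraries the lumbar genes had these levels: Hoxa10 ranged from 4.97 to 11.0 FPKM (median 6.58), Hoxc10 from 0 to 3.05 (median 1.41), Hoxd10 from 0 to 2.24 (median 0.358) and Hoxd11 from 0 to 0.0995 FPKM.

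**Figure D3:**
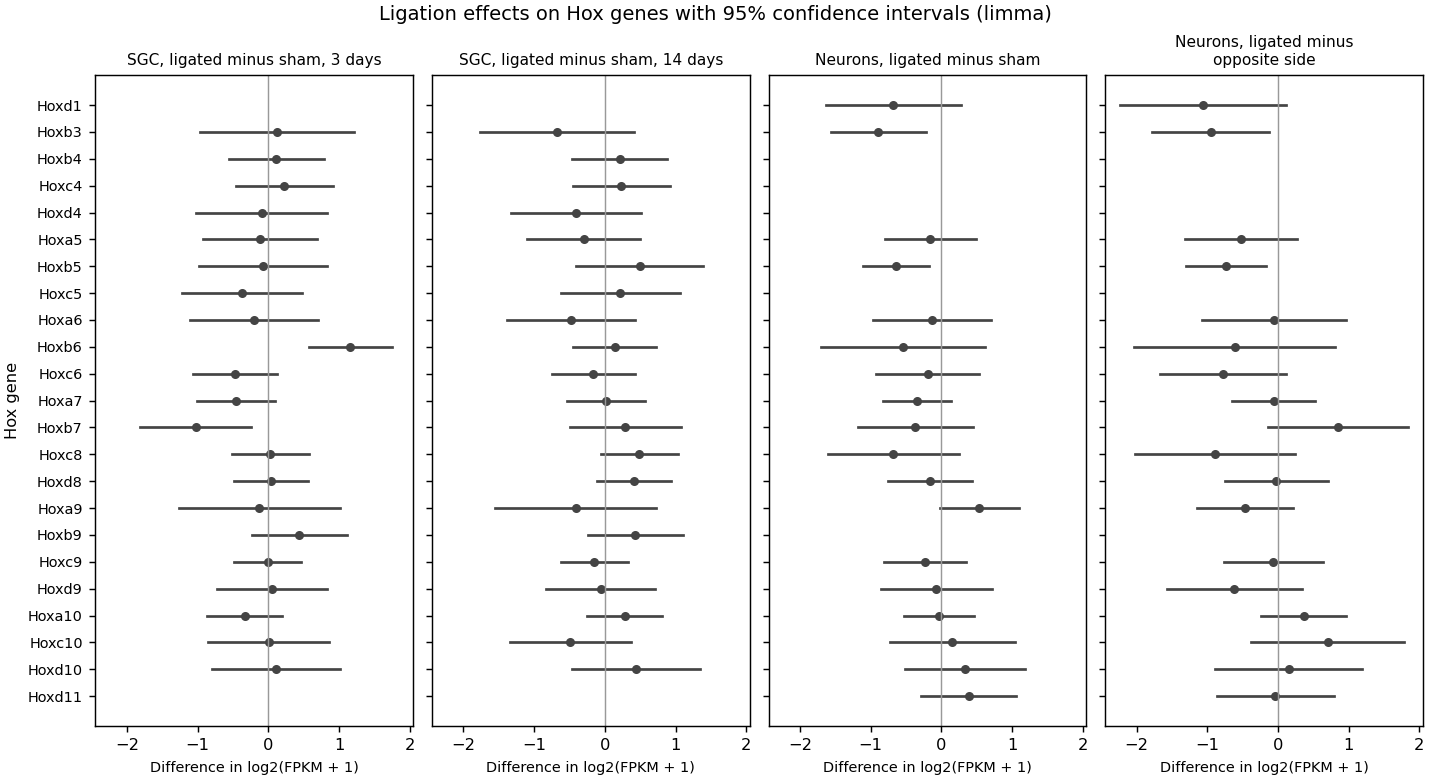
Log2 difference with its 95% confidence interval (limma) for the tested Hox genes described here, ordered by paralog group, for SGCs ligated minus sham at 3 days and 14 days and for neurons ligated minus sham and ligated minus opposite side. None of the genes drawn had an adjusted p under 0.05 by limma, and Hoxb6 at 3 days (1.16) lies farthest above 0 in the first panel.

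In neurons all 19 listed Hox genes averaged 1 FPKM or more over the 20 libraries, and 4 averaged 10 FPKM or more. Hoxa7 ranged from 23.2 to 82.2 FPKM (median 44.2), Hoxb5 from 9.79 to 38.9 (median 24.1), Hoxa9 from 8.69 to 37.0 (median 20.1) and Hoxa10 from 11.4 to 30.3 FPKM (median 15.3). The lumbar genes Hoxc10, Hoxd10 and Hoxd11 ranged from 0.557 to 13.9 (median 8.19), from 1.23 to 13.7 (median 4.89) and from 0.797 to 5.51 FPKM (median 2.02). Of the 20 Hox genes with no row in that table, 6 have a mean normalized count of 10 or more in the authors' deposited table, up to 42.4 for Hoxc4, while the lowest of the 19 listed genes has 24.8. The neuron table therefore leaves out some Hox genes with reads, Hoxb4 and Hoxb9 among them.

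Ligated and sham neurons were compared over both sexes. Limma called 0 of 19 Hox genes, against 0.28% of the 12145 genes tested. An unadjusted p under 0.05 was reached by 2 of the 19, against 3.58% of all genes tested. The authors' deposited table for neurons calls 0 of 24 Hox genes with an adjusted p, against 1.7% of its genes. Which neuron libraries entered it is not stated, so its values here and below need not rest on the libraries compared by limma. The median log2 difference was -0.17 over the 19 Hox genes and -0.04 over all genes tested.

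Hoxb5 had the lowest p. It stood at 16.5, 20.4 and 12.8 FPKM in ligated male and 21.7, 23.7 and 21.98 FPKM in ligated female neurons, and at 25.8, 26.97 and 29.8 FPKM in sham male and 30.2, 33.1 and 38.9 FPKM in sham female neurons. All 6 ligated libraries lay below all 6 sham libraries, which held for 1 of 19 Hox genes and for 0.79% of all genes in either direction (0.0988% in this one). The log2 difference was -0.65 ± 0.22 (SE, 95% interval -1.11 to -0.18; limma adjusted p = 0.738), so it was not called. The authors' deposited table, whose set of neuron libraries is not stated, gives -0.547 with an adjusted p of 0.0504, just above the threshold of 0.05.

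The comparison of the sides uses other libraries, and Hoxb5 was not called there. It stood at 9.79, 11.8, 31.5 and 17.1 FPKM on the ligated side and at 33.9, 20.5, 31.5 and 24.4 FPKM on the opposite side, where 1 ligated library reached the range of the others (log2 difference -0.73 ± 0.27, SE; limma adjusted p = 0.338). Hoxb3, a hindbrain and neck gene, stood at 0.745, 0.313 and 0.696 FPKM in ligated male and 1.61, 0.617 and 0.763 FPKM in ligated female neurons, and at 3.42, 2.29 and 2.08 FPKM in sham male and 2.44, 5.53 and 0.181 FPKM in sham female neurons (log2 difference -0.89 ± 0.32, SE; limma adjusted p = 0.840). Of the 6 sham libraries 5 lie above the ligated range, and 1 lies below it. Between the sides Hoxb3 stood at 1.07, 0.158, 0.728 and 0.514 FPKM on the ligated side and at 2.13, 1.27, 2.76 and 2.27 FPKM on the opposite side, with no overlap, as for 4.46% of all genes tested (log2 difference -0.95 ± 0.40, SE; adjusted p = 0.414). Neither difference of Hoxb3 was called, the gene shares 52.9% of its exon bases with the antisense Hoxb3os, and the authors' deposited table gives -0.379 with an adjusted p of 0.658.

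Hoxa9 had the largest positive log2 difference between ligated and sham neurons, 0.54 ± 0.27 (SE; limma adjusted p = 0.999), and did not pass. It stood at 17.7, 20.1 and 13.1 FPKM in ligated male and 22.6, 33.9 and 37.0 FPKM in ligated female neurons, and at 8.69, 21.7 and 9.26 FPKM in sham male and 20.2, 18.3 and 19.2 FPKM in sham female neurons. The groups overlap. Whether ligation acted differently in the sexes was tested as the male minus the female difference: 0 of 19 Hox genes were called by limma, as were 0% of all genes, with 0 Hox genes and 130 of all 12145 genes at an unadjusted p under 0.05. The lowest p in that test belonged to Hoxa7 (difference 0.63 ± 0.46, SE; adjusted p = 1).

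The lumbar genes of neurons were not called between ligated and sham libraries. Hoxc10 ranged from 5.48 to 12.3 FPKM (median 7.67) in ligated and from 2.80 to 12.3 FPKM (median 7.49) in sham neurons. Hoxd10 ranged from 3.82 to 11.4 FPKM (median 4.72) in ligated and from 2.43 to 10.4 FPKM (median 3.99) in sham neurons. The groups overlap in both genes. The log2 difference was -0.04 for Hoxa10 (95% interval -0.53 to 0.46), 0.15 for Hoxc10 (-0.73 to 1.04), 0.34 for Hoxd10 (-0.51 to 1.19) and 0.38 for Hoxd11 (-0.29 to 1.06). These intervals reach log2 differences near 1 for Hoxc10, Hoxd10 and Hoxd11, so differences of that size remain possible within them. Groups 10 and 11 gave 23.3% ± 6.29 of the Hox sum in ligated and 19.0% ± 3.61 in sham neurons (SD, n = 6 each). Between the sides they gave 27.9% ± 4.39 on the ligated and 20.4% ± 6.22 on the opposite side (SD, n = 4 each), with overlap.

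Between the ligated and the opposite side of ligated mice limma called 1 of 19 Hox genes, against 0.667% of all genes tested (0.659% as higher). The count of called Hox genes was 0 with a pseudocount of 0.1 and 0 with only the compared groups fitted. An unadjusted p under 0.05 was reached by 3 of the 19, against 9.85% of all genes tested. Hoxb3 and Hoxb5, whose values are given above, were not called.

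**Figure D4:**
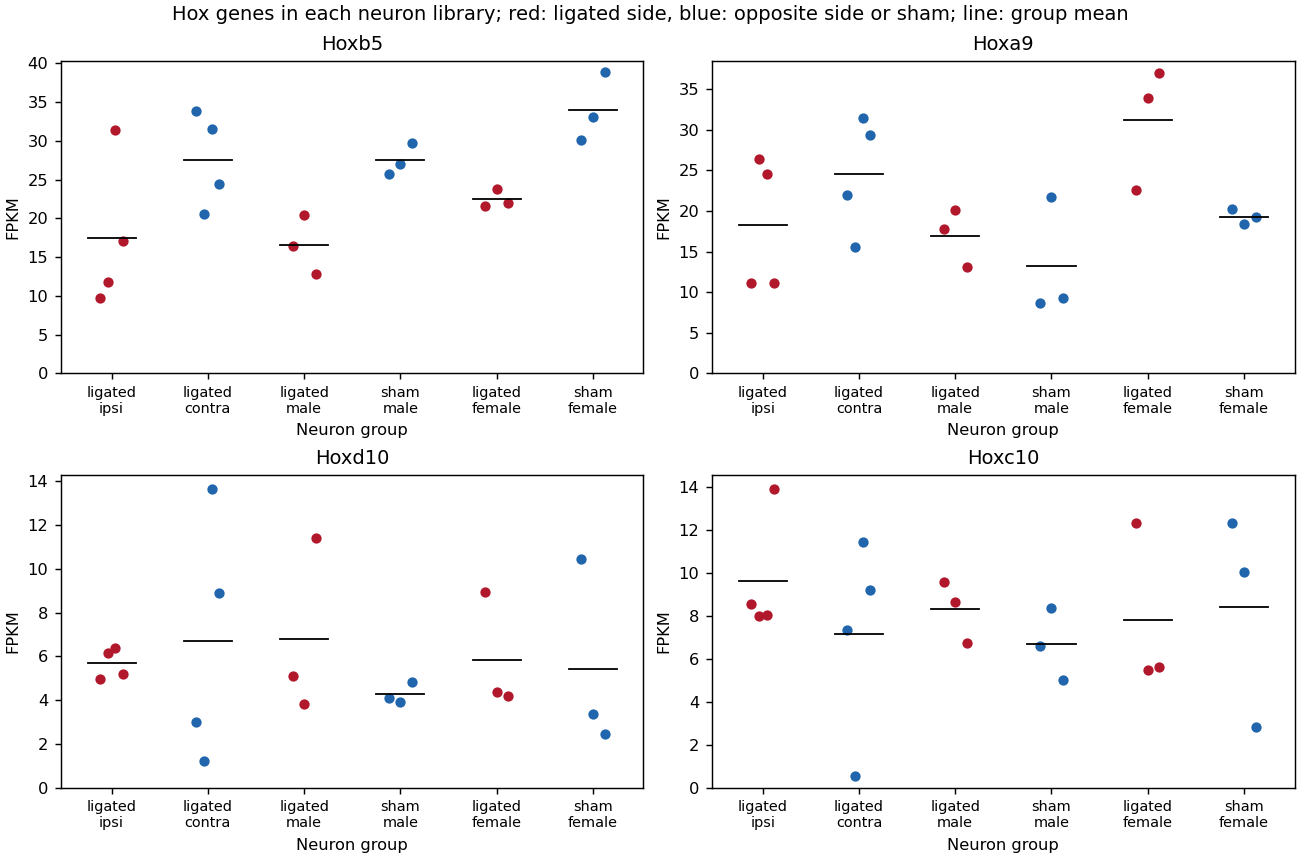
FPKM of Hoxb5, Hoxa9, Hoxd10 and Hoxc10 in each of the 20 neuron libraries by group; red is the ligated side, blue the opposite side or sham, and lines are group means. In the libraries labelled by sex, Hoxb5 lies at 12.8 to 23.7 FPKM in ligated against 25.8 to 38.9 FPKM in sham neurons. Between the sides Hoxb5 overlaps, at 9.79 to 31.5 FPKM on the ligated and 20.5 to 33.9 FPKM on the opposite side. For the other genes drawn the groups overlap.

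None of the TALE, Polycomb, trithorax, retinoic acid, cluster noncoding RNA or flanking gene lists had a called member in a ligation comparison by limma. Of the TALE genes, an unadjusted p under 0.05 was reached by 0 of 9 in SGCs at 3 days and at 14 days, by 0 of 8 in ligated against sham neurons and by 1 of 8 between the sides. Of the Polycomb genes it was reached by 0 of 12 in SGCs at 3 days, 1 of 12 at 14 days, 0 of 11 in ligated against sham neurons and 2 of 11 between the sides. The shares over all genes tested were 9.11% in SGCs at 3 days, 5.16% at 14 days, 3.58% in ligated against sham neurons and 9.85% between the sides, so counts this small say little about either list. Cyp26a1, the enzyme that breaks down retinoic acid, is named from its list after its values were seen. It stood at 5.20, 1.10 and 5.82 FPKM in ligated male and 1.88, 0.225 and 5.87 FPKM in ligated female neurons, and at 1.18, 0.247 and 0 FPKM in sham male and 0, 0.0287 and 0 FPKM in sham female neurons (log2 difference 1.60 ± 0.46, SE; limma adjusted p = 0.361). On the ligated side it stood at 5.21, 1.47, 0 and 5.84 FPKM, while it was listed at 0 in all 4 libraries of the opposite side. It was not called between the sides either (log2 difference 1.68 ± 0.57, SE; adjusted p = 0.263).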

How the data were processed

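Per the labels' protocols, total RNA of all 44 libraries was sequenced. Per the submitters' processing notes, STAR, SAMtools, Cufflinks and DESeq2 were used with mm10; versions and strand settings are not given in the sources used here. The authors deposited FPKM values per gene in 3 tables. The authors' deposited tables of ligated against sham also give log2 fold changes, normalized mean counts and p-values; their fold changes ran sham over ligated and were turned to ligated over sham after a check of signs against the FPKM values.

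From the FPKM values log2(FPKM + 1) was tested with limma 3.58.1 (trend, R 4.3.3) on genes with 1 FPKM in at least as many libraries as the smallest group holds, all groups of a table in 1 fit, without a replicate block, with Benjamini-Hochberg adjustment across every gene in the test. Calls need an adjusted p under 0.05. The files hold no read counts, so no count test was run. Tests were tried on simulated data. Values by library are given for called Hox genes (up to 8 a comparison), the highest gene of each cluster, Hox10 and Hox11 genes reaching 1 FPKM, and otherwise the 3 lowest adjusted p-values; of other lists at most 4 genes are named, called ones by size of difference first. Hoxb3 and Hoxb5 between the sides, Hoxb6 in further comparisons, Hoxd9, Hoxb8 and Cyp26a1 were added after their values were seen. Pseudocount, filter, normalization, groups fitted, block and single libraries were varied. Sequences came from RefSeq tables and the GRCm38 annotation. Values of some genes that this rule selects are not reported here. The members and the gene lists were chosen with earlier results of these data known.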

Additional observations from a re-analysis of the deposited data

Results flagged for a closer look

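In groups of 4 libraries, 9 of 112 combinations of Hox gene and group held 1 library far from the others by Dixon's ratio; chance flags about 1 in 20 such groups. Of these, 3 lay in SGC library 2 of the sham group at 3 days. There Hoxc10 stood at 2.31 FPKM (the others 1.37 to 1.52), Hoxd10 at 2.24 FPKM (0 to 0.0230) and Hoxb3 at 3.31 FPKM (the others listed at 0). Zeros of Hoxb3 are not read as absence, since its mean normalized count at 3 days was 59.9. With all others at 0 the ratio is 1 whatever the level, so the Hoxb3 flag carries little weight. Sham library 2 at 3 days had the highest summed nociceptor markers of its group, 505 FPKM, of which Calca alone gave 424 FPKM. Its Scn9a and Scn10a, at 10.9 and 3.90 FPKM, and its summed neuron markers, at 439 FPKM, lay below those of library 1 (19.5, 7.40 and 724 FPKM). The part of these cells in its Hox values was not tested.

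Hoxa9 stood at 29.4 FPKM in SGC library 1 ligated for 3 days, against 4.53 to 5.38 FPKM in the others of its group. Hoxb4 stood at 2.16 FPKM in SGC library 1 ligated for 14 days, against 5.90 to 6.64 FPKM. In naive SGCs Hoxb3 stood at 1.74 FPKM in library 4 and was listed at 0 in the others, and Hoxc9 stood at 2.56 FPKM in library 2, against 5.62 to 6.10 FPKM. In neurons Hoxc10 stood at 13.9 FPKM in 1 library of the ligated side (the others 7.98 to 8.53), and Hoxd1 at 12.2 FPKM in 1 library of the opposite side (the others 0 to 1.69).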

How the results depend on the processing

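The counts of called Hox genes in the SGC and the ligated against sham neuron comparisons were 0 in every setting tried. In the naive comparison the count was 8 to 10 over the settings and 6 to 9 with 1 library left out; in the side comparison it was 0 with a pseudocount of 0.1 and 0 with only the compared groups fitted, and 1 to 2 with 1 library left out. Left-out libraries turned the sign of 3 genes that were not called: Hoxa5 ranged from -0.12 (without SGC replicate 2) to 0.20, Hoxb6 from -0.06 (without SGC replicate 2) to 0.27, and Hoxb7 from -0.05 (without SGC replicate 3; -0.00 without DRG replicate 4) to 0.26. The cause was not tested. The share of groups 10 and 11 stayed at 7.88% to 9.41% in naive SGCs and 16.1% to 16.9% in naive DRGs. Deviations of same-numbered libraries had a median correlation of 0.046 in the naive table (4 pairs, 0.003 to 0.186). It was -0.006 for the 12 differently numbered naive pairs. In the operated SGC table the median for same-numbered libraries was -0.005 (24 pairs, -0.076 to 0.098). So few naive pairs cannot show whether same-numbered libraries share animals. With a replicate block the naive count was 8 and the SGC counts 0. For neurons no paired analysis was possible, because their columns carry no replicate number. Keeping the highest of repeated lines was not run, since no Hox line shares an identifier. Without read counts, the depth behind low FPKM values is not known per gene.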

Other observations

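The row of the miR-196a precursor Mir196a-1 was listed at 8081 FPKM in SGC library 3 ligated for 3 days and at 0 in the other operated SGC libraries. Hoxd1 was listed at 0 in all 4 SGC libraries ligated for 14 days and stood at 0.568, 1.93, 0.0224 and 0 FPKM in the sham libraries, and the authors' deposited table gives an adjusted p of 0.0980.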
